A study of Drosophila melanogaster with 27 samples.

Results

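RNA pulled down with antibodies against Fmr1 was compared with RNA of the starting lysate in heads of wild-type Drosophila melanogaster pupae. The comparison uses 10 of the 27 libraries of the series, 5 Fmr1 pull-downs and the 5 inputs with the same replicate numbers (1, 2, 3, 5 and 7), and all genes in the table of counts, 17807 in number. Of these, 11469 had enough reads to be tested. The question the comparison answers is which RNAs are over- or under-represented in the Fmr1 pull-down, background included, relative to the lysate, after scaling.

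Fmr1 is the only fly member of the family of RNA-binding proteins whose human gene is silenced in fragile X syndrome, and it is a protein that regulates the translation, transport and stability of mRNAs. In neurons it is best known for repressing translation of mRNAs that shape axons, dendrites and synapses, and it is found on polysomes and in RNA granules. In an RNA immunoprecipitation, the RNAs that stay with the antibody-bound protein are sequenced, so a value above input means over-representation in the pull-down, not more transcript in the tissue, and the protocol of these samples names no crosslinking step.

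The Fmr1 libraries came from flies of the w1118 stock, which serves as the wild type, precipitated with a mix of the mouse antibodies 5B6 and 5A11 on protein G beads. The lysate was made from 200 pooled heads per genotype. A small part of it was set aside as input, and the rest was divided between the Fmr1 antibodies and mouse IgG. A mouse IgG pull-down of the same stock, with 5 libraries, is given beside the results as the background of the beads and of mouse antibody, and 4 Fmr1 and 4 input libraries of flies homozygous for the Ythdf mutation (labelled Ythdf#0/#0, stock CG6422) are set beside the wild type at the end. Ythdf is a reader of m6A, the methyl mark on adenosines of mRNA. Neither the sex and the exact age of the pupae nor the nature of the mutation is given by the labels. The labels name the tissue as whole brain, whereas the protocol describes pupal heads.

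Counts in genes ran from 14843961 to 29699547 in the Fmr1 libraries, from 196933 to 5879253 in the IgG libraries and from 5623123 to 13240187 in the inputs, so that values of the IgG libraries carry the largest counting error. Reads with more than 1 alignment, which the table keeps apart from the genes, made up 15.1% to 18.3% of the reads of the Fmr1 libraries and 27.9% to 45.7% of those of the inputs. Reads that fell in no gene made up 37.2% in IgG replicate 7, the deepest IgG library, and 9.61% to 19.3% in the other IgG libraries. In a principal component analysis of the 10 libraries the first component (72.5% of the variance) separated the Fmr1 libraries from the inputs. On the second (11%), Fmr1 replicates 2 and 3 (−24.2 and −27.8) stood apart from Fmr1 replicates 1, 5 and 7 (30, 18.1 and 13.9). Input replicates 2 and 3 (−9.4 and −15.3) were also lowest, but input replicate 7 (−2.4) was near them and input replicate 1 (16.9) was farthest off. Counts of at least 3 called genes in a list that move by over 1.5 times with replicates 1, 5 and 7 alone, and called genes named below that lose their call there, are given with that value. All 8 neuron, 6 glia and 6 photoreceptor markers had reads, and so had all 4 of muscle, all 5 of fat body and all 4 of hemocytes, with 63 of 70 Cpr cuticle genes. The RNA thus included transcripts of tissues outside the brain. In such bulk lysates fewer cells of a type and less RNA per cell cannot be told apart. Summed levels of the 8 neuron markers were 8203 to 9763 CPM in the Fmr1 libraries, 4703 to 6558 CPM in the IgG libraries and 5099 to 7069 CPM in the inputs. These sums are counts relative to all gene counts of the library (CPM), without further scaling. CPM values of single genes below, and the main tests, are in addition scaled by the TMM method. Its factors were 0.771 and 0.822 in Fmr1 replicates 2 and 3. They were 0.947 to 0.977 in the other Fmr1 libraries and 0.974 to 1.01 in the inputs. A scaled value is thus not a plain share of the counts.

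Of the tested RNAs 48.8% differed between pull-down and input, in both directions. With edgeR's quasi-likelihood test and Benjamini-Hochberg adjusted p under 0.05, 2657 genes (23.2%) were higher in the Fmr1 libraries and 2940 (25.6%) were lower. The changes downward were larger. Lower genes had a median change of 1.28 on the log2 scale, and 731 of them changed by at least 2 on that scale, against a median of 0.83 and 52 such genes among the higher ones. All 5 Fmr1 libraries lay above all 5 inputs in 2173 genes (18.9%) and below them in 2376 (20.7%). In the IgG libraries, set against the same inputs, 1689 genes (14.7%) were higher (989 without IgG replicate 7) and 1676 (14.6%) lower, and in the Fmr1 libraries set against IgG 1881 (16.4%) were higher and 1954 (17%) lower. The share of higher genes among the calls depended on the scaling in these 2 comparisons. It was 50.2% for IgG over input, and 64.6% with RLE and 65.9% with upper-quartile factors. For Fmr1 over IgG it was 49.0%, and 27.7% with RLE and 34.0% with upper-quartile factors. The 3 comparisons share libraries, so their values are given side by side and not as support for each other. Of the 11371 genes tested with replicates 1, 5 and 7 alone, 1523 (13.4%) were higher and 2182 (19.2%) lower in the Fmr1 libraries than in the inputs, the shares against which list counts from these replicates are to be read. The median log2 fold change of all tested genes was −0.04. In what follows, a value in parentheses with an error is the log2 fold change of Fmr1 over input with its standard error, and genes called higher or lower passed the same test.

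By class of RNA, the pull-down held more of long mRNAs and less of short mRNAs, mitochondrial transcripts and small nucleolar RNAs. mRNAs with a coding length of at least 3 kb made up a median of 43.2% of the gene counts in the Fmr1 libraries (range 42.4% to 44.9%), 41.0% in the IgG libraries and 24.8% in the inputs (23.7% to 27.0%). Those under 0.6 kb took 5.18% in the Fmr1 libraries (4.75% to 5.38%), 7.64% in the IgG libraries and 12.1% in the inputs (11.7% to 12.7%). Transcripts of the mitochondrial genome took 0.814% in the Fmr1 libraries (0.153% to 1.12%), 1.75% in the IgG libraries and 7.93% in the inputs (5.07% to 8.33%). For small nucleolar RNAs, which guide modification of ribosomal RNA in the nucleolus, the shares were 0.0355% in the Fmr1 libraries, 0.722% in the IgG libraries and 0.317% in the inputs. The Fmr1 and input libraries did not overlap in any of these 4 classes.

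**Figure D1:**
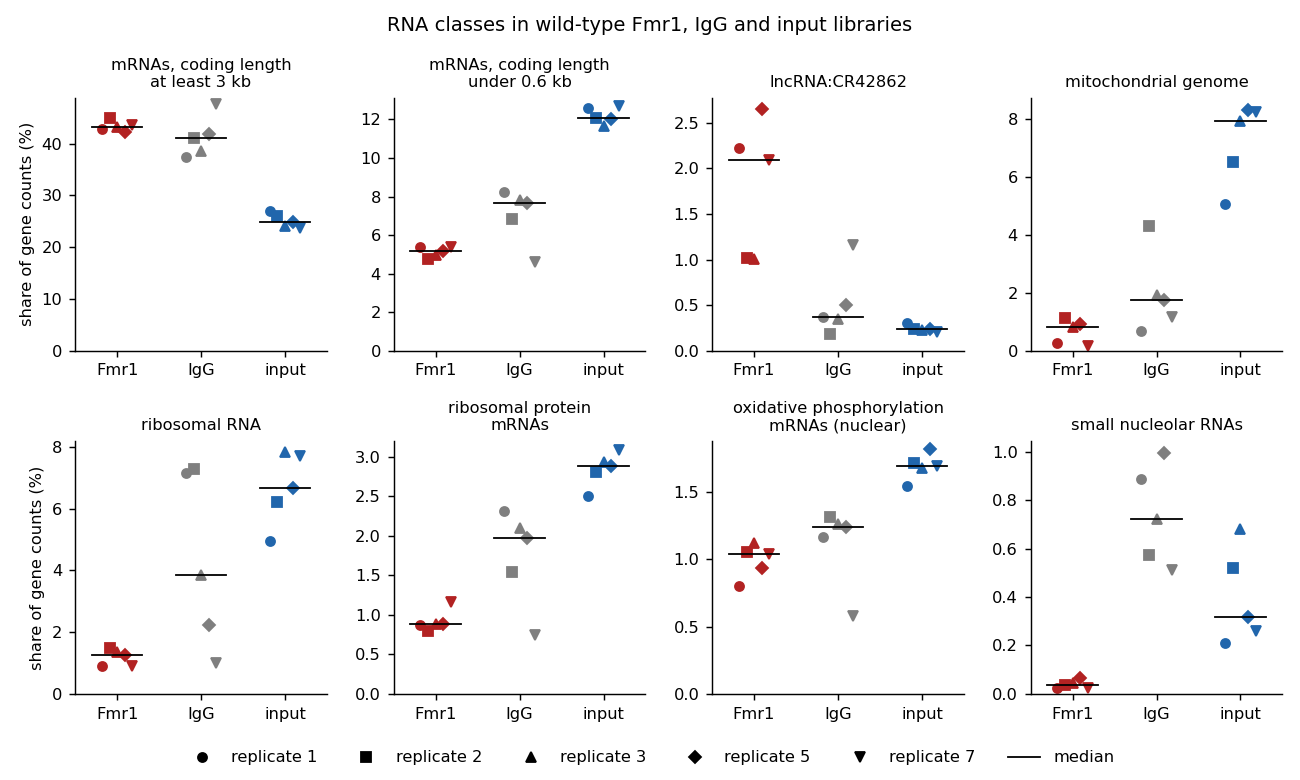
Share of the gene counts (%) taken by 8 classes of RNA in each wild-type library, with Fmr1, IgG and input libraries from left to right, a symbol per replicate and the median as a line. Fmr1 libraries lie above the inputs for long mRNAs and lncRNA:CR42862 and below them in the other 6 panels.

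The change followed the length of the coding sequence. When the 10419 tested mRNAs with an annotated coding length were cut into 10 classes of equal number, the median log2 fold change of Fmr1 over input went up at every step, with −1.59, −0.92, −0.57, −0.24, −0.09, 0.08, 0.22, 0.39, 0.60 and 0.89 from the shortest (78 to 471 nucleotides) to the longest class (3648 to 68850 nucleotides). In the shortest class 8 mRNAs were higher and 777 lower among 1042 (2 and 705 with replicates 1, 5 and 7 alone), and in the longest 841 were higher and 7 lower. The value of the sixth class changed sign to −0.01 with RLE size factors. IgG over input had −0.82 in the shortest and 0.50 in the longest class, with 389 of 1042 mRNAs lower in the shortest and 495 higher in the longest.

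Each Fmr1 and IgG library showed the gradient. The median log2 level of the longest class minus that of the shortest, both relative to the mean of the inputs, was 2.08, 2.48, 2.35, 1.95 and 1.97 in Fmr1 replicates 1, 2, 3, 5 and 7, 1.10, 1.52, 1.01, 1.01 and 1.72 in the IgG libraries and 0.14, 0.11, 0.07, −0.09 and −0.18 in the inputs. The 3 kinds of library did not overlap in this span. Across the 10419 mRNAs, which are not independent replicates, Spearman's rho between coding length and log2 fold change was 0.71 for Fmr1 over input and 0.48 for IgG over input. With the length of the whole transcript it was 0.68 for Fmr1 and 0.39 for IgG over input. Because of this gradient, the median of each group of mRNAs below is also given relative to length: the log2 fold change of each mRNA minus the median of its own length class, in Fmr1 over input unless IgG is named.

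**Figure D2:**
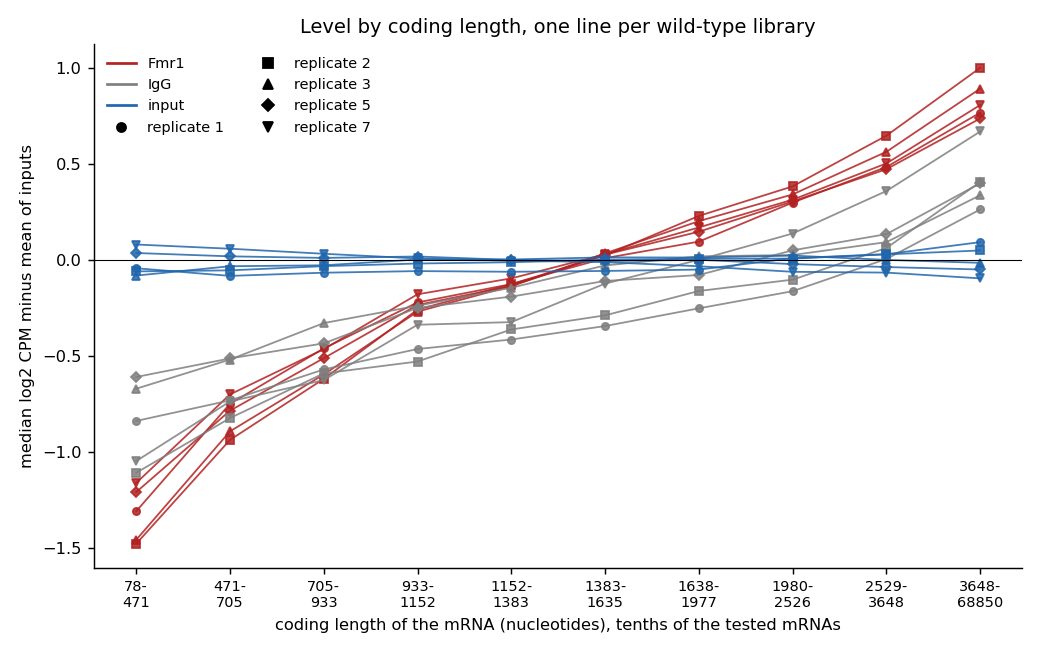
Median log2 CPM minus the mean of the inputs in 10 classes of coding length (nucleotides), with 1 line per library and a symbol per replicate. Fmr1 lines climb most, with spans of 1.95 to 2.48 between the outer classes, IgG lines less (1.01 to 1.72), and inputs stay near 0.

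Within each class of coding length, mRNAs with long 3′ untranslated regions had higher values in the Fmr1 pull-down than those with short ones. Within the shortest class, the third of mRNAs with the longest 3′ untranslated regions (median 494 nucleotides) had a median log2 fold change of −1.25 and the third with the shortest (median 75 nucleotides) −1.83, a difference of 0.58. Differences had the same sign in all 10 classes and were smallest, at 0.12, in the longest. In IgG over input the same differences ran from −0.20 to −0.01. Spearman's rho of 3′ untranslated length across genes was 0.32 for Fmr1 over input and 0.05 for IgG over input. Coding, 3′ untranslated and whole-transcript lengths are each the greatest value over the annotated transcripts of a gene in the assembly BDGP6.54, taken separately, and not those of the isoforms present in these heads.

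A noncoding RNA, lncRNA:CR42862, was strongly enriched in the pull-down. It had 23436, 13203, 12300.0, 27122 and 21701 CPM in Fmr1 replicates 1, 2, 3, 5 and 7, 3535, 1988, 3165, 4550.0 and 11097 CPM in the IgG libraries and 3132, 2426, 2347, 2345 and 2060.4 CPM in the inputs. Even the lowest Fmr1 library lay above the highest input, and IgG replicate 7 stood well above the other IgG libraries. Its log2 fold change over input was 2.99 ± 0.35 (SE, edgeR adjusted p = 1.28e-07), against 0.99 ± 0.33 for IgG. The RNA took 1.01% to 2.65% of the gene counts of the Fmr1 libraries and 0.204% to 0.31% of those of the inputs. In the assembly BDGP6.54 it overlaps CG33229 on the same strand, and CG33229 was also higher (2.03 ± 0.36, adjusted p = 4.58e-05); how reads were divided between both genes is not given.

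RpLP0-like, related to a ribosomal stalk protein and, in yeast, to a factor of ribosome assembly, stood out from mRNAs of its length. Its coding sequence of 771 nucleotides falls in the third class, whose median was −0.57, yet its levels were 67.6, 30.5, 30.4, 24.8 and 28.6 CPM in the Fmr1 libraries, 4.803, 5.002, 3.87, 6.502 and 3.401 CPM in the IgG libraries and 5.22, 5.38, 6.16, 5.16 and 6.69 CPM in the inputs. IgG and input libraries overlapped, and no Fmr1 library came near them. The log2 fold change was 2.67 ± 0.25 over input, with −0.45 ± 0.36 for IgG over input. CG10669 had 116, 84.9, 82.9, 64.7 and 64.5 CPM in the Fmr1 libraries, 14.4, 15.01, 13.5, 16.3 and 25.4 CPM in the IgG libraries and 15.1, 14.4, 12.1, 14.7 and 14.7 CPM in the inputs, a log2 fold change of 2.54 ± 0.20.

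The mRNAs of cac, FoxP, sbr and nompC were among the 12 RNAs with the largest rise. cac, which encodes the pore subunit of the presynaptic calcium channel, had 2352, 1578, 1282, 1637 and 1280.5 CPM in the Fmr1 libraries, 528, 598, 563, 585 and 1926 CPM in the IgG libraries and 393, 329.7, 231, 349 and 322 CPM in the inputs. That is a log2 fold change of 2.32 ± 0.30 for Fmr1 and 1.38 ± 0.30 for IgG over input, and the largest IgG value came again from replicate 7. FoxP, a forkhead transcription factor, had 582, 445, 276, 405 and 199 CPM in the Fmr1 libraries, 86.5, 52.5, 64.4, 91.02 and 279 CPM in the IgG libraries and 80.3, 66.8, 56.7, 79.2 and 74.2 CPM in the inputs, a log2 fold change of 2.42 ± 0.38. sbr, the fly counterpart of the mRNA export receptor NXF1, had 531, 379, 283, 278 and 181 CPM in the Fmr1 libraries, 120.1, 42.5, 53.5, 75.9 and 137 CPM in the IgG libraries and 83.1, 73.1, 67.5, 63.3 and 70.2 CPM in the inputs (2.21 ± 0.30). nompC, a mechanically gated channel, had a log2 fold change of 2.2 ± 0.20 from 42.1 ± 10.3 CPM in the Fmr1 and 9.14 ± 0.915 CPM in the input libraries (mean and SD, n = 5 each).

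Not all of the most enriched RNAs were low in the IgG pull-down. mei-W68, which makes the DNA breaks of meiotic recombination, had 26.03, 29.8, 23.1, 15.2 and 6.005 CPM in the Fmr1 libraries, 4.803, 30.01, 25.1, 9.75 and 38.1 CPM in the IgG libraries and 3.599, 2.15, 2.46, 2.42 and 1.97 CPM in the inputs. Its log2 fold change over input was 3.02 ± 0.43 for Fmr1 and 3.32 ± 0.47 for IgG. CG18171 was likewise 2.25 ± 0.27 for Fmr1 and 3.0 ± 0.29 for IgG, and CG44437 2.86 ± 0.40 for Fmr1 and 2.16 ± 0.44 for IgG. CG14435 depended on the library, with 279, 486, 350.1, 157 and 90.6 CPM in the Fmr1 libraries against 57.6, 50.9, 56.5, 50.2 and 60.8 CPM in the inputs; replicates 2 and 3 were highest and replicate 7 lowest. The microRNA locus mir-9381 had 3.95, 42.02, 46.9, 4.48 and 5.73 CPM in the Fmr1 libraries and 2.52, 2.23, 2.11, 2.75 and 3.94 CPM in the inputs, so that its call rested on replicates 2 and 3 (adjusted p = 0.239 with replicates 1, 5 and 7 alone).

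**Figure D3:**
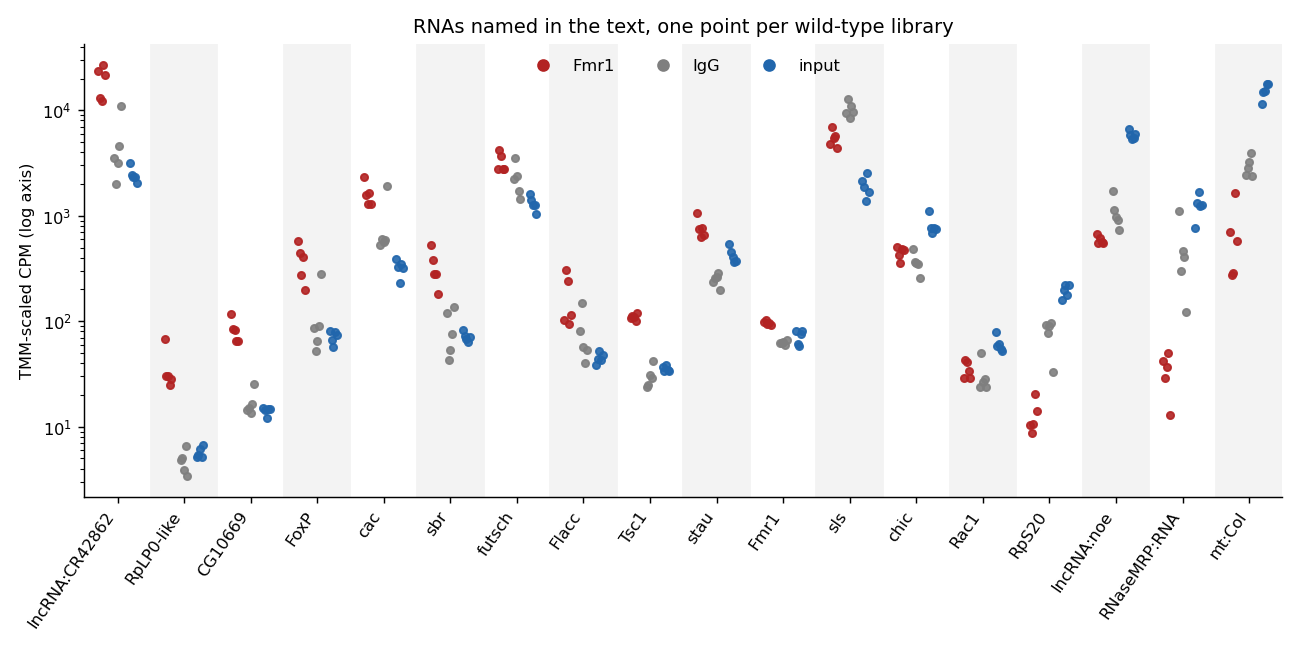
TMM-scaled CPM on a log axis for 18 RNAs in each wild-type library, with Fmr1, IgG and input points from left to right within each gene. In lncRNA:CR42862, RpLP0-like, CG10669 and Tsc1 the Fmr1 points stand above both others, and in RpS20, RNaseMRP:RNA and mt:CoI all 5 Fmr1 points lie below the inputs.

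The mRNA of Fmr1 itself was modestly enriched. It had 98.1, 102, 93.4, 96.1 and 91.3 CPM in the Fmr1 libraries, 62.4, 62.5, 63.2, 59.6 and 66.6 CPM in the IgG libraries and 81.2, 60.5, 58.2, 75.4 and 79.9 CPM in the inputs. In these TMM-scaled values the Fmr1 libraries lay above all others. The log2 fold change over input was 0.44 ± 0.12 (adjusted p = 0.0027), and with replicates 1, 5 and 7 alone the adjusted p was 0.25. Of 20 mRNAs known from earlier work as Fmr1 targets, 8 were higher and 5 lower, and 5 and 3 with replicates 1, 5 and 7 alone. Among all genes 23.2% were higher and 25.6% lower. These mRNAs had a median relative to length of 0.26.

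futsch, the microtubule-binding counterpart of MAP1B and the classic target, was among the higher ones. It had 2753, 4234, 3685, 2768 and 2784 CPM in the Fmr1 libraries, 2219, 3516, 2402, 1719.7 and 1427 CPM in the IgG libraries and 1624, 1403, 1275, 1256 and 1049.8 CPM in the inputs. Its log2 fold change was 1.30 ± 0.25 for Fmr1 over input, 0.77 ± 0.25 for IgG over input and 0.53 ± 0.25 for Fmr1 over IgG, where the adjusted p was 0.106. poe, the counterpart of the ubiquitin ligase UBR4, had 3575, 3117, 2718, 3495 and 3925 CPM in the Fmr1 libraries against 1076, 1114, 939, 1134 and 882 CPM in the inputs (1.71 ± 0.17). drpr, the engulfment receptor of glia, had a log2 fold change of 1.30 ± 0.16.

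The mRNAs of chic (profilin) and Rac1 (a small GTPase of the actin cytoskeleton), both described as bound or regulated by Fmr1, were lower than in input. chic had 503, 421, 356, 482 and 479 CPM in the Fmr1 libraries, 485, 363, 359, 351 and 258 CPM in the IgG libraries and 1121, 771, 682, 769 and 743 CPM in the inputs (−0.87 ± 0.19, adjusted p = 0.00055). Rac1 had 28.8, 42.7, 40.8, 33.5 and 29.3 CPM in the Fmr1 libraries, 24.02, 50.02, 26.4, 28.2 and 23.8 CPM in the IgG libraries and 78.8, 58.7, 61.4, 54.4 and 52.4 CPM in the inputs (−0.80 ± 0.16). Both were lower in IgG over input too, with −1.19 for chic and −1.07 for Rac1. Both are short, with coding sequences of 381 and 579 nucleotides, and against the median of their own length class they stood at 0.72 and 0.12. Sod1, an antioxidant enzyme of 462 coding nucleotides, fell by 1.36 on the log2 scale.

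Among 9 writers and readers of m6A, 5 were higher in the Fmr1 libraries and 0 lower, and 3 were higher with replicates 1, 5 and 7 alone. Relative to length their median was 0.23 for Fmr1 and 0.34 for IgG. Flacc, a subunit of the writer complex, had 102, 304, 238, 94.1 and 116 CPM in the Fmr1 libraries, 81.7, 150.1, 56.7, 40.1 and 53.8 CPM in the IgG libraries and 38.7, 44.2, 51.9, 42.8 and 47.4 CPM in the inputs, with replicates 2 and 3 highest and no overlap between Fmr1 and input. Its log2 fold change was 1.92 ± 0.37 (adjusted p = 0.000111). The writer subunits vir (1.03 ± 0.19), nito (0.85 ± 0.18) and fl(2)d (0.63 ± 0.18) were also higher, although fl(2)d had an adjusted p of 0.163 with replicates 1, 5 and 7 alone. Ythdc1, the nuclear reader, passed narrowly (adjusted p = 0.0443) and did not pass with the replicate block (adjusted p = 0.0577), nor with DESeq2 (0.089) or limma voom (0.0911). Leaving out input replicate 2, 3, 5 or 7 or Fmr1 replicate 2 or 3 also ended the call (0.0672 to 0.272). The catalytic pair Mettl3 and Mettl14 had log2 fold changes of −0.12 and −0.09, Hakai 0.51 and Ythdf −0.10, none of which passed. With replicates 1, 5 and 7 alone Ythdc1 and Hakai had −0.01 and −0.17. Hakai passed without Fmr1 replicate 1 (adjusted p = 0.0437). Ythdf had 71.8, 39.4, 38.03, 75.1 and 63.3 CPM in the Fmr1 libraries and 69.1, 62.8, 63.3, 55.5 and 58.5 CPM in the inputs, below every input in replicates 2 and 3 only.

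Many synaptic and neuronal mRNAs were enriched. Of 16 neuron markers 11 were higher and 0 lower (7 higher with RLE factors), with a median log2 fold change of 0.54 for Fmr1 and −0.29 for IgG over input. brp, the scaffold of the active zone, had 2664, 3846, 3307, 2479.9 and 2573 CPM in the Fmr1 libraries, 1374, 1616, 1214, 1129 and 2161 CPM in the IgG libraries and 1112, 793, 603, 992 and 953 CPM in the inputs (1.74 ± 0.21). onecut, a transcription factor of neurons, had 887 ± 287 CPM in the Fmr1 libraries, 327 ± 106 CPM in the IgG libraries and 299.5 ± 15.9 CPM in the inputs (1.57 ± 0.22). Relative to length the median of the neuron markers was 0.41 for Fmr1 and −0.26 for IgG. The count of higher markers was 5 of 16 with replicates 1, 5 and 7 alone.

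Transmitter synthesis and transport genes had 12 of 18 higher and 1 lower, and none of the 18 was higher in IgG over input. VAChT, the vesicular transporter of acetylcholine, had 1147, 1949, 1772, 1122 and 1245 CPM in the Fmr1 libraries, 514, 823, 675, 428 and 568 CPM in the IgG libraries and 685, 571, 453, 629.8 and 925 CPM in the inputs (1.15 ± 0.21), and IgG and input overlapped. Also higher were SerT, the serotonin transporter (1.69 ± 0.34), and Eaat2, a transporter of acidic amino acids (0.74 ± 0.14). Of 27 synaptic vesicle and active zone genes 14 were higher and 2 lower, with Liprin-alpha, an active zone scaffold, among them (1.40 ± 0.19). The counts of higher genes in these groups were 6 of 18 and 4 of 27 with replicates 1, 5 and 7 alone, the second near the 13.4% of all genes. Medians relative to length were 0.39 for the transmitter genes and 0.07 for the synaptic vesicle and active zone genes.

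Most receptor and channel genes of the lists were higher. Of 37 transmitter receptors 23 were higher and none lower, at a median of 0.57 for Fmr1 and 0.25 for IgG over input, but 5 of 37 with replicates 1, 5 and 7 alone, near the 13.4% of all genes. Relative to length their median was 0.20 for Fmr1 and 0.13 for IgG. nAChRalpha1, a subunit of nicotinic receptors, had 439.7, 705, 541, 354 and 321 CPM in the Fmr1 libraries, 144, 273, 228, 142 and 307 CPM in the IgG libraries and 146, 117, 78.9, 183 and 236 CPM in the inputs (1.63 ± 0.28). The octopamine receptor Octbeta3R (1.13 ± 0.23) and the muscarinic receptor mAChR-B (0.87 ± 0.17) were higher as well. Among 25 voltage-gated and potassium channel genes 16 were higher and 2 lower, with nearly the same median for Fmr1 (0.79) as for IgG (0.74) over input. unc80, a subunit of the sodium leak channel complex, had 636, 1080.1, 893, 651 and 796 CPM in the Fmr1 libraries, 375, 770.3, 570.4, 607 and 974 CPM in the IgG libraries and 256, 269.9, 244, 244 and 248 CPM in the inputs (1.68 ± 0.23). The potassium channels SK (1.40 ± 0.24) and SLO2 (1.29 ± 0.23) were higher too. Of the channel genes 7 of 25 were higher with replicates 1, 5 and 7 alone. The channels, relative to length, stood at 0.11 for Fmr1 and at 0.45 for IgG.

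Adhesion molecules and scaffolds of the synapse had 21 of 23 higher and 0 lower, at a median of 0.92 for Fmr1 and 0.62 for IgG over input. CadN, a neuronal cadherin, had 802, 872, 676, 632 and 700.3 CPM in the Fmr1 libraries, 504, 535, 519, 475 and 1226 CPM in the IgG libraries and 299.8, 288, 203, 285 and 336 CPM in the inputs (1.38 ± 0.21), with IgG replicate 7 above all Fmr1 libraries. The related CadN2 (1.47 ± 0.22) and Toll-7, a Toll receptor (1.55 ± 0.21), were higher too. Relative to length, the median of the group was 0.07, near that of mRNAs of the same size. Only 11 of 23 were higher with replicates 1, 5 and 7 alone.

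Genes of axon guidance and growth were called in both directions, with 21 of 42 higher and 5 lower, and 11 and 4 with replicates 1, 5 and 7 alone. Mical, an enzyme that oxidises actin downstream of plexins (1.46 ± 0.18), and Pak, a kinase downstream of Rac (1.19 ± 0.18), were higher. Rho1, a small GTPase, was lower, at 108 ± 13.4 CPM in the Fmr1 libraries and 222 ± 39.1 CPM in the inputs (−1.04 ± 0.16). Of 13 members of the WAVE and Arp2/3 machinery that nucleates actin, 3 were higher and 5 lower. Among all genes 23.2% were higher, near the share in this list, and 25.6% lower. Cyfip, a large WAVE subunit known as a partner of Fmr1, had 148 ± 9.75 CPM in the Fmr1 libraries and 80.5 ± 3.26 CPM in the inputs (0.88 ± 0.13). The small subunits Arpc3A and Arpc4 were lower, with log2 fold changes of −2.07 ± 0.27 and −1.71 ± 0.24. Set against mRNAs of their own length class, medians were −0.05 for the guidance genes and −0.01 for the WAVE and Arp2/3 genes. Cyfip has 3876 coding nucleotides, Arpc3A 534 and Arpc4 507.

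Microtubule motors and transport genes had 13 of 23 higher and 5 lower, and 12 and 1 with replicates 1, 5 and 7 alone. The kinesins Khc (1.16 ± 0.17) and unc-104 (1.04 ± 0.15) and the kinesin adaptor syd (1.33 ± 0.16) were enriched, while the group had a median of −0.02 in IgG over input. unc-104, which carries synaptic vesicle precursors, had 2586 ± 212 CPM in the Fmr1 libraries, 1517 ± 135 CPM in the IgG libraries and 1259 ± 101 CPM in the inputs. The group stood, relative to length, at 0.02.

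All 26 tested genes of very large proteins were higher in the Fmr1 libraries, and remained 26 of 26 with replicates 1, 5 and 7 or replicates 2 and 3 alone. In Fmr1 over IgG 4 of them were higher and 4 lower. sls, which encodes the giant muscle protein of the titin family, had 4800.4, 6901, 5412, 5642 and 4362 CPM in the Fmr1 libraries, 9501, 12845, 8493, 10963 and 9647 CPM in the IgG libraries and 2114, 1860.5, 1392, 2554 and 1676 CPM in the inputs. All 5 IgG libraries were above all 5 Fmr1 libraries, which were above all 5 inputs. Its log2 fold change was 1.50 ± 0.25 for Fmr1 over input, 2.42 ± 0.26 for IgG over input and −0.92 ± 0.25 for Fmr1 over IgG. LRP1, a lipoprotein receptor, had a log2 fold change of 1.31 for Fmr1 and 1.24 for IgG over input, and Itpr, the calcium channel of internal stores, 1.23 for Fmr1 and 0.76 for IgG. The median of the group was 1.30 for Fmr1 and 1.34 for IgG over input, and relative to length 0.42 for Fmr1 and 0.84 for IgG. The longest class runs from 3648 to 68850 coding nucleotides, and the median coding length of the group is 14284.5. Differences of length within that class thus remain in the length-relative values.

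Cyclic nucleotide signalling, the pathway long linked to fragile X learning defects in flies, had 18 of 23 higher and 0 lower, at a median of 0.90 for Fmr1 and 0.36 for IgG over input. Pde11, a phosphodiesterase, had 463, 454, 398, 432 and 434 CPM in the Fmr1 libraries, 211, 135, 180.4, 172 and 223 CPM in the IgG libraries and 158, 138, 154, 148 and 124 CPM in the inputs (1.60 ± 0.14). The adenylyl cyclases Ac3 (1.56 ± 0.21) and Ac78C (1.08 ± 0.15) were higher as well. The count was 10 of 23 with replicates 1, 5 and 7 alone, and the median relative to length 0.27.

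In the TOR and insulin pathway, which couples nutrients to growth and translation, 12 of 23 were higher and 2 lower. Tsc1, an inhibitor of TOR, had 106, 112, 109, 101 and 121 CPM in the Fmr1 libraries, 24.02, 25.01, 30.9, 29.3 and 42.4 CPM in the IgG libraries and 36.5, 33.9, 38.9, 34.7 and 33.5 CPM in the inputs. Fmr1 values were narrow and separate, and the log2 fold change was 1.63 ± 0.14 for Fmr1 against −0.12 ± 0.16 for IgG over input. The scaffolds of the TOR complexes, raptor (1.71 ± 0.23) and rictor (1.89 ± 0.21), were also enriched. Ubiquitin ligases counted 18 of 25 higher and 1 lower, among them HUWE1 (1.59 ± 0.22) and Nedd4 (1.22 ± 0.16), and 16 of 25 higher with replicates 1, 5 and 7 alone. With length taken into account in this way, medians were 0.10 for the TOR and insulin genes and 0.19 for the ligases.

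Chromatin regulators had 26 of 35 higher and 0 lower, with 23 of 35 in replicates 1, 5 and 7 alone. brm, the ATPase of a remodelling complex, had 195, 146, 124, 137 and 144 CPM in the Fmr1 libraries, 86.5, 82.5, 45.1, 74.8 and 67.05 CPM in the IgG libraries and 68.2, 65.6, 62.96, 61.5 and 56.3 CPM in the inputs (1.25 ± 0.15). The remodeller dom (1.65 ± 0.15) and the histone methyltransferase trx (1.39 ± 0.15) rose by similar amounts. RNA granule and RNA-binding proteins had 13 of 32 higher and 0 lower. stau, a double-stranded RNA-binding protein of transport granules, had 1071, 754, 629.8, 762 and 662 CPM in the Fmr1 libraries, 235, 255, 263, 287 and 196 CPM in the IgG libraries and 544, 456, 409.8, 366 and 372 CPM in the inputs. It was higher in the Fmr1 pull-down (0.85 ± 0.16) and lower in the IgG pull-down (−0.80 ± 0.17) than in input. The translational repressor smg (1.10 ± 0.17) and the CPEB protein orb (1.35 ± 0.23) were also higher. The count of this group was 5 of 32 with replicates 1, 5 and 7 alone, near the 13.4% of all genes. The chromatin regulators stood, relative to length, at 0.11 and the RNA granule and RNA-binding proteins at −0.09.

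Translation factors divided, with 9 of 26 higher and 10 lower. eIF5B, the large GTPase that joins the ribosomal subunits, was higher (1.47 ± 0.16). eEF5, a small elongation factor, was lower, with 89.8 ± 34.8 CPM in the Fmr1 libraries and 402 ± 52.8 CPM in the inputs (−2.16 ± 0.27), and so was eEF1beta, an exchange factor (−1.53 ± 0.20). In the BMP pathway of synaptic growth 7 of 15 were higher and 1 lower (4 higher with RLE factors, and 3 with replicates 1, 5 and 7 alone). Among the higher ones were the coactivator nej (1.60 ± 0.20), the receptor tkv (0.81 ± 0.14) and the inhibitory Dad (0.83 ± 0.16), which had an adjusted p of 0.0632 with replicates 1, 5 and 7 alone. Clock genes had 5 of 16 higher and 4 lower, beside 23.2% higher and 25.6% lower among all genes. With replicates 1, 5 and 7 alone the counts were 3 and 3. The repressors tim (0.91 ± 0.17) and cwo (1.09 ± 0.21) were higher and the kinase subunit CkIIalpha (−0.97 ± 0.18) lower. As medians relative to length, values were −0.16 for translation factors, 0.15 for the BMP pathway and 0.02 for clock genes.

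Markers of other cell types were called in both directions. Their counts are to be read against all genes, of which 23.2% were higher and 25.6% lower. Photoreceptor markers had 11 of 27 higher and 6 lower, and 2 higher and 6 lower with replicates 1, 5 and 7 alone. The ultraviolet opsin Rh4 had 80.6, 85.5, 85.2, 77.3 and 95.03 CPM in the Fmr1 libraries and 179, 204, 198, 155 and 214 CPM in the inputs (−1.17 ± 0.18), and rtp, a photoreceptor protein (−1.53 ± 0.22), and Gbeta76C, the G protein subunit of phototransduction (−1.15 ± 0.16), were lower too. Muscle markers had 8 of 24 higher and 6 lower (11 lower with the replicate block). Prm, the paramyosin gene (1.48 ± 0.26), was higher and Mlc2, the short myosin light chain gene of 669 coding nucleotides (−1.45 ± 0.20), lower. Glia markers had 5 of 16 higher and 2 lower (3 higher with RLE factors, and 2 higher and 2 lower with replicates 1, 5 and 7 alone). Gli, a septate junction protein (1.34 ± 0.19), and axo, a secreted protein of glia (1.05 ± 0.17), were higher and the sodium pump subunit nrv2 (−1.40 ± 0.26) lower. Hemocytes are the blood cells of flies, and their markers had 6 of 11 higher and 1 lower, including the collagen vkg (2.00 ± 0.43), the phagocytosis receptor eater (1.70 ± 0.23) and the matrix protein Ppn (1.14 ± 0.21). Fat body markers had 2 of 17 higher and 3 lower against 8 higher and 0 lower in IgG over input. FASN1, fatty acid synthase (1.33 ± 0.25), and Lpin, an enzyme of fat synthesis (0.98 ± 0.15), were higher and the lipid droplet protein Lsd-1 (−0.85 ± 0.17) lower. Length-relative medians were −0.13 for photoreceptor, 0.01 for muscle, −0.28 for glia, 0.13 for hemocyte and −0.47 for fat body markers, the last against 0.21 in IgG. Without TMM scaling, the 5 fat body markers of the tissue check summed to 293 to 505 CPM in the Fmr1 libraries, 1310.3 to 3016 CPM in the IgG libraries and 553 to 800.3 CPM in the inputs. Their part in the results was not tested.

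**Figure D4:**
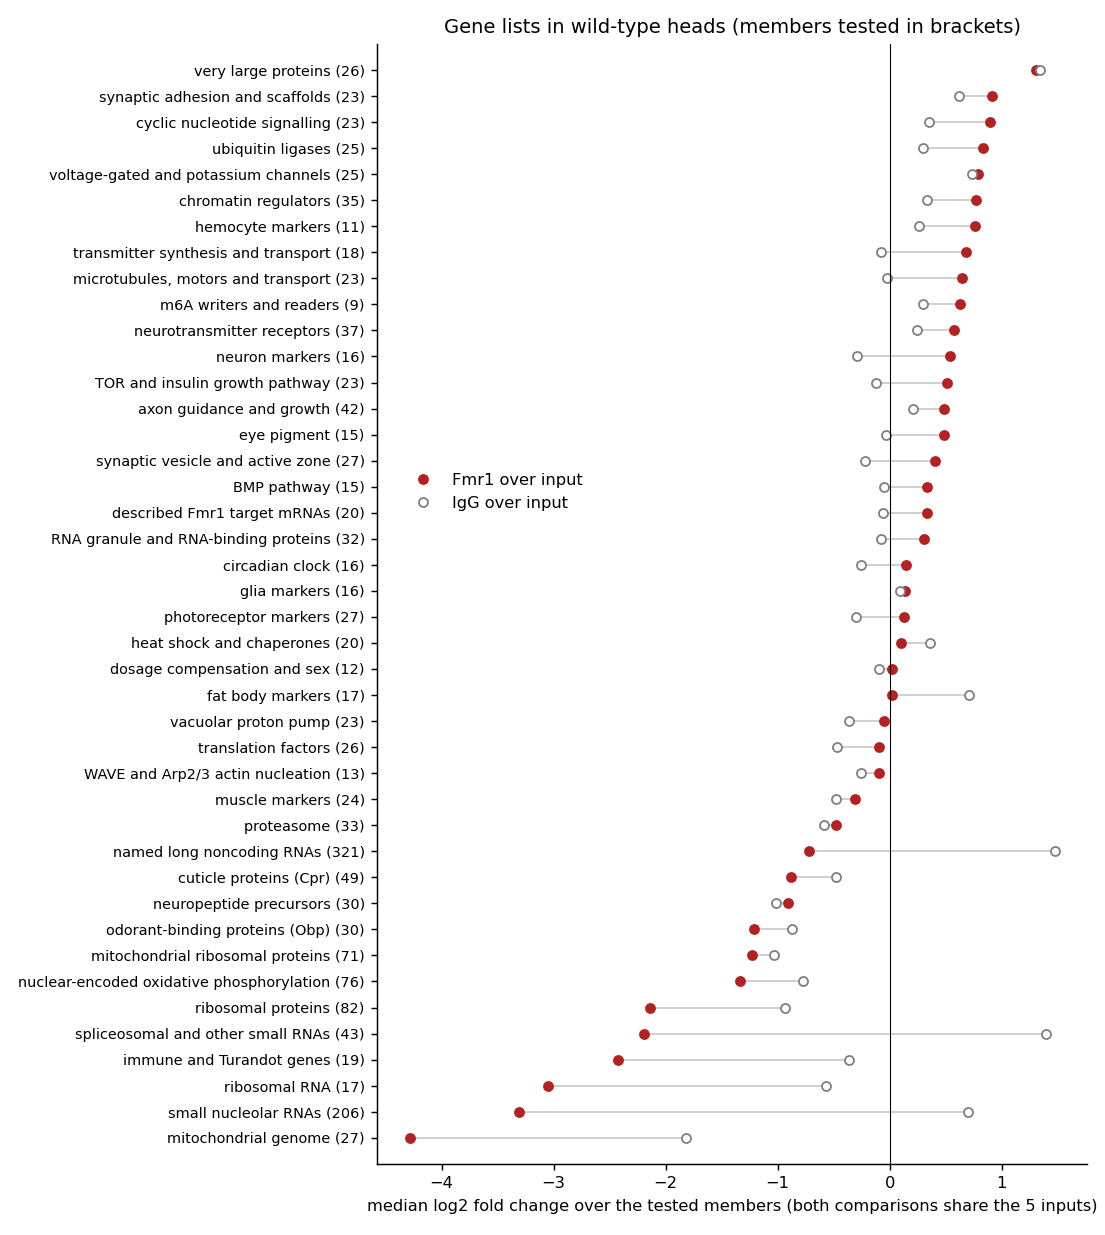
Median log2 fold change over the tested members of each of the 42 gene lists, filled for Fmr1 over input and open for IgG over input, which share the 5 inputs. Very large proteins lie highest, with 1.30 for Fmr1 and 1.34 for IgG, and the mitochondrial genome lowest, with −4.29 for Fmr1 and −1.82 for IgG.

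Transcripts of the mitochondrial genome were the most depleted group. Of 27 tested, 24 were lower and 0 higher, at a median of −4.29 for Fmr1 and −1.82 for IgG over input. With the Fmr1 and input libraries fitted alone, 17 were tested and 17 were lower. mt:ND3, a subunit of complex I, had 0.711, 1.54, 1.302, 7.24 and 0.838 CPM in the Fmr1 libraries and 137, 248, 296, 228 and 276 CPM in the inputs. Fmr1 replicate 5 held several times more than the other Fmr1 libraries, and still far less than any input. Its log2 fold change was −6.72 ± 0.76, the lowest of the genes named by the rule. mt:CoI, a subunit of cytochrome oxidase, had 699.7, 274, 288, 1661 and 572 CPM in the Fmr1 libraries, 2430.5, 2864, 3198, 3965 and 2397 CPM in the IgG libraries and 11493, 14883, 15379, 17689 and 17735 CPM in the inputs, 22.1-fold lower in the Fmr1 libraries by means (−4.46 ± 0.56). mt:ND4, of complex I (−6.22 ± 0.83), and mt:Cyt-b, of complex III (−4.74 ± 0.55), were also lower, again with replicate 5 highest among the Fmr1 libraries.

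mRNAs of cytosolic ribosomal proteins were lower almost throughout, with 75 of 82 lower and 2 higher, at a median of −2.14 for Fmr1 and −0.94 for IgG over input. Relative to mRNAs of the same length the median was still −0.96 for Fmr1, and −0.19 for IgG. RpS20 had 10.5, 8.73, 10.6, 20.5 and 14.1 CPM in the Fmr1 libraries, 91.3, 77.5, 90.9, 96.4 and 33.4 CPM in the IgG libraries and 159.8, 197, 221, 178 and 222 CPM in the inputs (−3.93 ± 0.28). RpL37A had 17.4, 24.5, 32.1, 29.4 and 16.5 CPM in the Fmr1 libraries, 159, 160.1, 228, 228 and 53.4 CPM in the IgG libraries and 216, 244, 271, 194 and 218 CPM in the inputs (−3.26 ± 0.27, with −0.48 ± 0.26 for IgG over input). RpS27A, a fusion of ubiquitin and a ribosomal protein, was lower as well (−3.31 ± 0.24). Ribosomal protein families can have near-identical copies, and reads with more than 1 alignment are kept apart from the genes in the table, so levels of such members are uncertain. The 2 exceptions, chosen after their values were seen, were RpL4 (1.09 ± 0.24) and RpL6 (0.79 ± 0.26). RpL6 had an adjusted p of 0.263 with replicates 1, 5 and 7 alone.

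Nuclear genes of mitochondria followed. Mitochondrial ribosomal proteins had 60 of 71 lower and 0 higher, among them mRpS21 (−3.49 ± 0.37). Subunits of oxidative phosphorylation had 55 of 76 lower and 1 higher (4 higher with the replicate block), at a median of −1.34 for Fmr1 and −0.78 for IgG over input. COX5B, a subunit of cytochrome oxidase, had 36.7, 24.7, 27.1, 35.9 and 36.2 CPM in the Fmr1 libraries, 187, 90.04, 78.6, 88.9 and 52.1 CPM in the IgG libraries and 220.1, 209, 213, 212 and 243 CPM in the inputs (−2.78 ± 0.24). ATPsyndelta, of the ATP synthase, was lower too (−1.90 ± 0.17). Relative to length the medians of these groups were −0.48 and −0.26, smaller than the shift of cytosolic ribosomal proteins. The proteasome had 17 of 33 lower, among them the core subunit Prosbeta4 (−1.96 ± 0.22), and 4 higher (2 higher with RLE factors, and 1 with replicates 1, 5 and 7 alone). The vacuolar proton pump had 8 of 23 lower, among them the subunit Vha14-1 (−1.39 ± 0.19), and 1 higher (3 higher with the replicate block). Its sets of replicates differed, with 0 higher and 10 lower at a median of −0.44 in replicates 1, 5 and 7 alone, and 6 higher and 8 lower at a median of 0.18 in replicates 2 and 3 alone. For length-relative medians, the proteasome stood at −0.26 and the pump at 0.05.

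Small nucleolar RNAs were depleted in the Fmr1 libraries relative to both inputs and IgG libraries. Of 206 small nucleolar RNAs 184 were lower and 0 higher in Fmr1 over input, at a median of −3.31, whereas 23 were higher and 0 lower in IgG over input, at a median of 0.70. In Fmr1 over IgG, 197 were lower and 0 higher. A fit of the Fmr1 and input libraries alone tested 134 small nucleolar RNAs, with 125 lower and 0 higher than in input. The main filter used all 6 groups, so members with reads mainly in IgG or mutant libraries could enter. Their values against IgG are therefore not independent of the filter. In the fit of all kinds of library with replicates 1, 5 and 7 alone, 118 were lower than in input. snoRNA:Psi28S-291, a guide for pseudouridine in 28S ribosomal RNA, had 7.58, 5.95, 6.92, 11.2 and 4.12 CPM in the Fmr1 libraries, 240.2, 163, 181, 1324 and 129 CPM in the IgG libraries and 129, 252, 290.4, 251 and 210.4 CPM in the inputs. IgG replicate 5 was highest of all libraries. snoRNA:Psi18S-531 (−4.39 ± 0.42) was lower too. Many such RNAs are encoded in introns, and how reads of the host genes were counted is not given in the sources used here.

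RNaseMRP:RNA, the RNA of a nucleolar processing enzyme, had 42.4, 28.9, 37.1, 50.2 and 12.8 CPM in the Fmr1 libraries, 1105, 300.1, 463, 409.6 and 122 CPM in the IgG libraries and 759, 1317, 1685, 1237 and 1255 CPM in the inputs (−5.19 ± 0.47). RNaseP:RNA, of the enzyme that trims transfer RNA (−4.87 ± 0.30), and snRNA:7SKa, of a complex that restrains transcription elongation (−4.46 ± 0.37), were lower as well. In all 23 of 43 spliceosomal and other small RNAs were lower and 1 higher (11 lower with replicates 1, 5 and 7 alone). With the Fmr1 and input libraries fitted alone, 21 were tested, with 12 lower and 0 higher. The main filter used all 6 groups, so members with reads mainly in IgG or mutant libraries could enter. Of 17 members of the ribosomal RNA list, which holds pseudogenes such as 28SrRNA-Psi:CR45855, 15 were lower and 0 higher. The libraries had been depleted of ribosomal RNA. 

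Among named long noncoding RNAs 91 of 321 were lower and 10 higher, against 7 lower and 156 higher in IgG over input. Over all genes, those higher in IgG over input fell from 1689 to 989 without IgG replicate 7. This list was not counted without that library. With replicates 1, 5 and 7 alone 49 were lower and 5 higher in Fmr1 over input. In Fmr1 over IgG 202 were lower and 4 higher. A fit of the Fmr1 and input libraries alone tested 164 of these RNAs, with 75 lower and 12 higher. The main filter used all 6 groups, so RNAs with reads mainly in IgG or mutant libraries could enter the list. The counts against IgG are therefore not independent of that filter. lncRNA:noe had 676, 546, 609.5, 569 and 552 CPM in the Fmr1 libraries, 1710.0, 1138, 981, 905 and 728 CPM in the IgG libraries and 6585, 5869, 5389, 5428 and 5894 CPM in the inputs (−3.30 ± 0.25). The dosage compensation RNAs, which coat the X chromosome of males, were lower as well. lncRNA:roX1 had 249.9, 256, 203, 234 and 114 CPM in the Fmr1 libraries, 706, 855, 682, 491 and 1287 CPM in the IgG libraries and 966, 1034, 879, 845 and 922 CPM in the inputs (−2.14 ± 0.27), and lncRNA:roX2 was also lower (−3.51 ± 0.52). The mRNA of mle, the helicase of the same complex, was higher (0.71 ± 0.15). Of the 12 genes of dosage compensation and sex in the list, 3 were higher and 3 lower, near the 23.2% and 25.6% of all genes. With replicates 1, 5 and 7 alone 1 was higher. The 10 with a coding length had a median relative to length of −0.10.

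Short mRNAs of secreted proteins were depleted. Neuropeptide precursors had 19 of 30 lower and 0 higher. Nplp3 had 13.2, 13.05, 23.02, 28.6 and 19.4 CPM in the Fmr1 libraries, 62.4, 20.01, 77.3, 63.9 and 23.8 CPM in the IgG libraries and 175, 93.1, 139, 179.8 and 118 CPM in the inputs (−2.86 ± 0.34). Akh, the adipokinetic hormone gene (−2.29 ± 0.25), and Ms, the myosuppressin gene (−2.07 ± 0.25), were lower too. Relative to length their median was 0.41, above mRNAs of the same size, and −0.40 for IgG. Odorant-binding proteins had 20 of 30 lower and 0 higher, with Obp56d at 64.4, 47.3, 47.6, 71.6 and 90.6 CPM in the Fmr1 libraries and 271, 359, 273, 278 and 339.6 CPM in the inputs (−2.24 ± 0.26). Relative to length their median was −0.04. Cpr cuticle genes had 26 of 49 lower and 3 higher, with Cpr65Ea among the lower ones (−2.34 ± 0.25), and their median relative to length was −0.0049.

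Immune and Turandot genes, short peptides induced by infection or stress, had 13 of 19 lower and 0 higher, at a median of −2.43 for Fmr1 and −0.37 for IgG over input. BomS2 had 0.889, 1.54, 1.03, 1.86 and 1.61 CPM in the Fmr1 libraries, 14.4, 7.503, 14.8, 4.33 and 5.99 CPM in the IgG libraries and 7.74, 9.38, 8.35, 12.6 and 16.8 CPM in the inputs (−3.01 ± 0.57), and Dro, the drosocin gene, was lower too (−3.05 ± 0.67). Relative to length the group stood at −0.85 for Fmr1 and 0.44 for IgG. Among chaperones 2 of 20 were higher and 1 lower (5 higher and 4 lower with the replicate block, and 1 and 0 with replicates 1, 5 and 7 alone). The higher ones were Gp93, a chaperone of the endoplasmic reticulum (1.15 ± 0.22), and Hsc70-4, of the cytosol (0.75 ± 0.20; adjusted p = 0.102 with replicates 1, 5 and 7 alone). Eye pigment genes had 7 of 15 higher and 4 lower, and 4 and 2 with replicates 1, 5 and 7 alone. Among them ca (1.13 ± 0.13) and rb (0.76 ± 0.15) were higher and or (−1.09 ± 0.21) lower, the last pair encoding subunits of the AP-3 adaptor of pigment granules. Medians relative to length were −0.07 for chaperones (0.43 for IgG) and 0.17 for eye pigment genes.

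The pull-down of Ythdf mutant heads, which shares no library with the wild type, had a similar number of calls over its own inputs. The mRNA of Ythdf itself had 36.7, 15.4, 17.8 and 23.8 CPM in mutant Fmr1 libraries and 35.5, 36.3, 31.7 and 29.4 CPM in mutant inputs (replicates 1, 2, 3 and 7), beside the wild-type values above. In the mutant 46.5% of the genes differed, with 2494 (21.7%) higher and 2839 (24.8%) lower. Genes higher in both genotypes numbered 2215, which is 88.8% of those in the mutant and 83.4% of those in the wild type. Genes lower in both numbered 2447, or 86.2% of those in the mutant and 83.2% of those in the wild type. By the interaction term of the same edgeR fit, 0 genes had a higher and 1 (0.00872%) a lower Fmr1 over input value in the mutant at adjusted p under 0.05, and 197 (1.72%) had an unadjusted p under 0.05 in either direction. DESeq2 called 0 higher and 2 lower, and limma voom 0 higher and 1 lower.

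That gene was Pde11. It had 156, 232, 235 and 246 CPM in the Fmr1 libraries and 159, 178, 174 and 186 CPM in the inputs of mutant replicates 1, 2, 3 and 7, a log2 fold change of 0.32 ± 0.16, against 1.60 ± 0.14 in the wild type, whose levels are given above. The difference of mutant minus wild type was −1.28 ± 0.21 with adjusted p = 0.0178. The call was lost without mutant input replicate 7 (adjusted p = 0.0837), wild-type input replicate 2 (0.0519) or wild-type input replicate 7 (0.0645). CG1722 and CG13022 were higher in the wild type and lower in the mutant, with −2.18 in the mutant and 1.09 in the wild type for CG1722 and −1.13 in the mutant and 0.64 in the wild type for CG13022. Their differences had adjusted p = 0.262 and 0.504 and did not pass. Their wild-type calls were also lost with replicates 1, 5 and 7 alone (0.0804 for CG1722 and 0.248 for CG13022). Leaving out 1 library ended the call of CG1722 in 4 cases (input replicates 2, 3 and 7 and Fmr1 replicate 5) and of CG13022 in 7 (input replicates 1, 3, 5 and 7 and Fmr1 replicates 2, 3 and 7).

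For other RNAs described above the difference between genotypes did not pass. The log2 fold change over input of lncRNA:CR42862 was 2.63 ± 0.38 in the mutant and 2.99 ± 0.35 in the wild type, that of cac 2.01 ± 0.34 in the mutant and 2.32 ± 0.30 in the wild type, and that of RpS20 −4.06 ± 0.31 in the mutant and −3.93 ± 0.28 in the wild type. Small nucleolar RNAs had a median of −4.53 in the mutant and −3.31 in the wild type, and this difference of medians was not tested. Their median share of gene counts was 0.685% in mutant and 0.317% in wild-type inputs. In the Fmr1 libraries it was 0.0281% in the mutant and 0.0355% in the wild type. futsch had a log2 fold change of 1.45 ± 0.28 in the mutant and 1.30 ± 0.25 in the wild type, Flacc 2.17 ± 0.41 in the mutant and 1.92 ± 0.37 in the wild type, and Fmr1 0.75 ± 0.13 in the mutant and 0.44 ± 0.12 in the wild type.

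**Figure D5:**
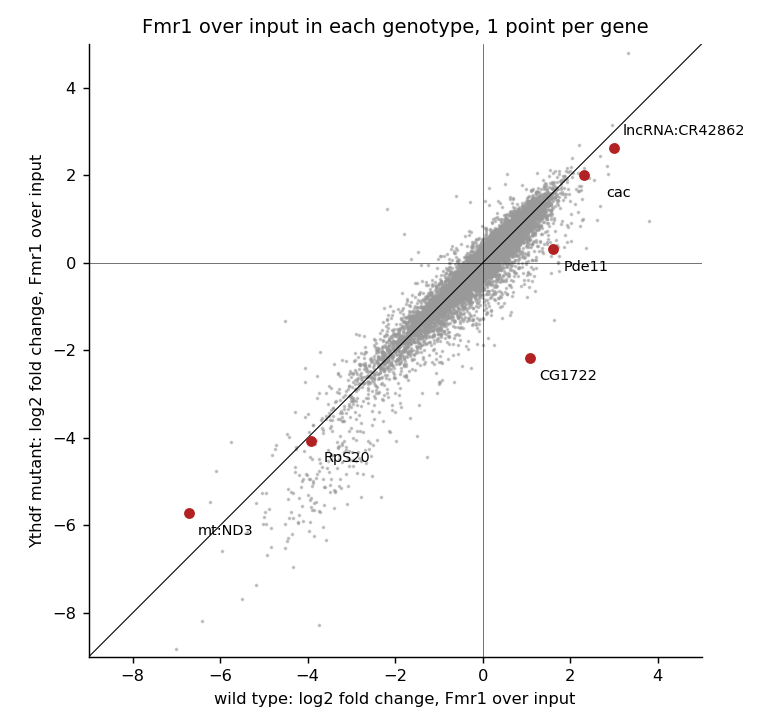
Log2 fold change of Fmr1 over input in Ythdf mutant heads (vertical) against wild-type heads (horizontal) for the 10019 genes with a mean of at least 1 CPM over the 4 kinds of library, with the line of equality and 6 genes named. Pde11 lies below the line, with 0.32 in the mutant and 1.60 in the wild type.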

How the data were processed

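RNA of Fmr1 and IgG pull-downs and of input lysates from pupal heads was sequenced with strand-specific libraries depleted of ribosomal RNA, per the labels' protocols. The authors deposited raw counts per gene and library. The submitters' processing notes name bcl2fastq 2.20, Trim Galore and STAR, while the genome build, the annotation, the strand setting of the counting and the use of the molecular identifiers in read 2 are not given in the sources used here. Multiply aligned, ambiguous and unassigned reads, which the table lists apart from genes (25.7% to 31.6% of reads in the wild-type Fmr1, 44.5% to 68.4% in the IgG and 37.3% to 57.8% in the input libraries), were left out. Gene symbols and lengths came from the Ensembl annotation of BDGP6.54, which held 17710 of the 17807 gene identifiers.

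All 27 libraries were fitted in 1 model with 6 groups in edgeR 4.0.16 (R 4.3.3) by the quasi-likelihood test with TMM scaling, after filterByExpr (minimum count 10, minimum total 15) had removed 6338 genes, with Benjamini-Hochberg adjustment over the 11469 left and a threshold of 0.05. The biological coefficient of variation was 0.281. Alternatives were RLE and upper-quartile factors, DESeq2 1.42.0, limma voom 3.58.1, other filters, other sets of libraries, a replicate block, a test against a fold of 1.5 and leaving out each library. The fit was checked on simulated data. No 2 libraries held identical values. Whether replicates came from separate collections is not stated, so p-values measure the spread between these libraries.

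Replicate numbers pair Fmr1 and input libraries. The protocol splits each lysate, and deviations from the group means correlated at 0.237 to 0.44 between same-numbered wild-type Fmr1 and input libraries and at 0.214 to 0.471 in the mutant. For IgG and input the wild-type values ran from 0.0168 to 0.217.

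Named genes were the 12 called genes with the greatest rise and the 12 with the greatest fall (mean of at least 4 CPM, no overlap between groups), up to 3 per list with the smallest p, the m6A list, Fmr1, futsch, chic and Rac1, of which a part is printed. Members, lists and rules were chosen with earlier results of these data known, and target and tissue lists were drawn up from general knowledge.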

Additional observations from a re-analysis of the deposited data

Results flagged for a closer look

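In 20 of 296 groups of 5 wild-type libraries, the highest or lowest library stood apart from the other 4, with a gap of more than 0.71 of the group's range. Chance gives about 1 in 20 groups. In the Fmr1 libraries, replicate 1 was highest for RpLP0-like at 67.6 CPM (median of the 5 libraries 30.4 CPM), CG44437 at 56.6 CPM (median 22.7), smg at 360.4 CPM (median 232.5) and tim at 294.9 CPM (median 263.6). Replicate 2 was highest for Mical at 1027 CPM (median 839).

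Fmr1 replicate 5 was highest for mitochondrial transcripts, with 7.24 CPM for mt:ND3 (median 1.30), 105.6 CPM for mt:ND4 (median 19.6) and 554.9 CPM for mt:Cyt-b (median 140.3). Each of these values was far below the inputs. Replicate 7 was highest for or at 6.56 CPM (median 5.19) and for the share of cytosolic ribosomal protein mRNAs at 1.17% of gene counts (median 0.885%). Among the IgG libraries, replicate 7 had the lowest share of oxidative phosphorylation mRNAs, 0.58% against a median of 1.24%.

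In the inputs, replicate 1 was highest for chic at 1121 CPM (median 769) and ATPsyndelta at 316.9 CPM (median 243.9). Replicate 2 was lowest for Pak at 79.3 CPM (median 88.4). Replicate 3 was lowest for CG10669 at 12.1 CPM (median 14.7) and highest for syd at 153.7 CPM (median 138.7). Replicate 5 was lowest for eater at 9.34 CPM (median 15.1) and highest for CG1722 at 3.52 CPM (median 1.62). Replicate 7 was lowest for ca at 76.9 CPM (median 82.4) and mle at 66.5 CPM (median 72.6).

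For Pde11 the enrichment over input differed between genotypes by the interaction term of the edgeR fit, with −1.28 on the log2 scale for mutant minus wild type (adjusted p = 0.0178). Mutant Fmr1 libraries lay above the mutant inputs in 3 of 4 replicates, and wild-type Fmr1 libraries above the wild-type inputs in 5 of 5.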

How the results depend on the processing

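Alternatives are given for the counts of called genes and for 130 named genes. Of these, 118 were tested in all 23 settings of the Fmr1 over input test, and 98 of them kept their call and direction in each. The other 12 were filtered out in at least 1 setting, and 9 of them kept call and direction wherever tested. The call or direction of 23 genes changed, of which 18 lost the call in the test against a minimum fold of 1.5. The cause of these changes was not tested. For Fmr1 over input, 1523 genes were higher with replicates 1, 5 and 7, and 990 higher and 1757 lower in the minimum fold test. With the replicate block, which follows the pairing of the lysates, 2862 were higher and 3310 lower, and among named genes the block changed only the call of Ythdc1. Leaving out 1 library gave 2308 to 2664 higher and 2617 to 2913 lower genes. IgG over input was less stable, with 2668 higher without a filter, 1026 lower with replicates 1, 5 and 7, 918 higher and 1036 lower with the replicate block in a fit of these groups alone, and 805 higher and 388 lower in the minimum fold test. Leaving out 1 library gave 989 (without IgG replicate 7) to 1779 higher and 1161 to 1619 lower. For Fmr1 over IgG, the higher genes numbered 982 with RLE and 1204 with upper-quartile factors, 537 with replicates 1, 5 and 7, 778 with these groups alone, 916 with the block in addition, 1024 with a stricter filter, 337 in the minimum fold test and 1052 with DESeq2. The lower genes numbered 3281 without a filter, 1038 with these groups alone, 959 with the block in addition and 1192 in the minimum fold test. Leaving out 1 library gave 1430 to 1932 higher and 1503 to 1946 lower. RLE factors moved the median of all genes by 0.13 for IgG over input, −0.22 for Fmr1 over IgG and −0.09 for Fmr1 over input. In the mutant, 623 were higher and 1523 lower with replicates 1 and 7, and 896 higher and 1635 lower in the minimum fold test, with 1862 to 2591 and 2321 to 3140 when 1 library was left out. The interaction gave 0 lower genes without a filter, with replicates 2 and 3, with replicates 1, 5 and 7 and in the minimum fold test, 2 with these groups alone and with DESeq2, 3 with the replicate block (in both fits), and 0 to 2 when 1 library was left out. The adjusted p of Pde11 ran from 1.35e-08 to 1 over these settings. Some genes that did not pass, and Ythdc1, which passed narrowly, changed sign in some settings. Ythdf had 0.18 with replicates 1, 5 and 7, and 0.0039 and 0.012 without Fmr1 replicate 2 or 3. Mettl3 had 0.078 and Mettl14 0.071 without input replicate 5 (Mettl3 had −0.25 without input replicate 7), and Hakai −0.17 and Ythdc1 −0.0065 with replicates 1, 5 and 7. With replicates 2 and 3 alone, 10 axon guidance and 7 fat body genes were lower, 6 chaperones and 5 oxidative phosphorylation genes were higher, and 17 long noncoding RNAs were higher. Counts of gene lists by sets of replicates, scaling and block were added after seeing the data. The low depth of the IgG libraries limits comparisons with IgG more than those of Fmr1 with input.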
